A study of Homo sapiens with 8 samples.

Results

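miR-21-5p, one of the best known oncogenic miRNAs, was followed in the androgen-insensitive human prostate cancer line PC-3. The cells were exposed for 24 h to the solvent DMSO, to 60 µM luteolin, to 60 µM gefitinib, or to luteolin and gefitinib together with 60 µM of each. Gefitinib blocks the kinase activity of the epidermal growth factor receptor (EGFR). Luteolin belongs to the plant flavonoids, and the study describes it as a further antagonist of tyrosine kinases linked to EGFR. Each group had 2 arrays, which are labelled as biological replicates, so that 8 1-colour miRNA arrays from 1 cell line were available. The miRNA was selected by its name on the array, and it is 1 of the 1887 human miRNAs that the array carries. The comparison asks whether either drug, or the pair, changed the level of miR-21-5p. All 8 arrays lay on 1 slide and were read in 1 scan. The replicate 1 arrays filled one row of the slide and the replicate 2 arrays the other, and each treatment had its own column, so that treatment and column cannot be told apart.

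miRNAs are short RNAs that guide Argonaute proteins to messenger RNAs, mainly through the seed (bases 2 to 8), and lower the output of these targets. miR-21-5p is cut from the 5′ arm of the miR-21 hairpin and is abundant in most carcinomas. Its described targets include the tumour suppressor PDCD4, and its gene is known to be switched on by AP-1 and STAT3, transcription factors that act downstream of EGFR and cytokine receptors. The other arm of the hairpin gives miR-21-3p, the passenger strand, which usually accumulates to much lower amounts.

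The mature sequence, its hairpin and the mature miRNA that shares its seed are shown because they define what the probes can bind and which other miRNA could act on the same sites. The sequences are those of RefSeq on GRCh38.p14. miR-21-5p lies at chr17:59841273-59841294 on the plus strand, within the 72-base MIR21 hairpin at chr17:59841266-59841337, and RefSeq places MIR21 inside the protein-coding gene VMP1. miR-590-5p, at chr7:74191213-74191234 on the plus strand, was the only other miRNA of the array found in the sequence table with the same bases 2 to 8. Capitals mark the seed in both mature sequences and the mature miR-21-5p in the hairpin.
hsa-miR-21-5p: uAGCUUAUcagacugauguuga
hsa-miR-590-5p: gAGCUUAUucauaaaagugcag
MIR21 hairpin: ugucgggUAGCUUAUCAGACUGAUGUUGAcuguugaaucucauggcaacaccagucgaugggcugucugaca

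miR-21-5p was abundant on every array, and no drug moved its scaled level beyond the spread between the replicates. The scanner software gives each miRNA a total signal in intensity units with the background subtracted. As deposited, this total signal was 3195 and 4134 in DMSO-treated cells, 3799 and 4535 in luteolin-treated cells, 4555 and 4859 in gefitinib-treated cells, and 4013 and 3094 in cells given both drugs, for replicates 1 and 2 respectively. The software's own error of each of these signals was between 7.15% and 7.19%. Without scaling, both gefitinib arrays were brighter for miR-21-5p than the other 6 arrays, as was so for 25.8% of the tested miRNAs, and the lowest signal came from replicate 2 of luteolin plus gefitinib, which was also the dimmest array as a whole.

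The arrays differed in overall brightness. To correct for this, the 75th percentile of the 365 miRNAs that were detected on all 8 arrays was set equal. It lay between 60.5 and 92.7 intensity units before scaling. Between 395 and 481 miRNAs were detected per array. After scaling, the signal of miR-21-5p was 3401 and 4695 with DMSO, 3561 and 4731 under luteolin, 3922 and 4104 under gefitinib, and 3608 and 4001 under luteolin plus gefitinib. The 8 scaled signals spanned 1.39-fold around a median of 3962. All 4 arrays of the groups that received gefitinib lay between the DMSO replicates and also between the luteolin replicates, and every pair of groups overlapped.

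The group means of the scaled signal were 4048 ± 915 (SD, n = 2) for DMSO, 4146 ± 827 (SD, n = 2) for the luteolin group, 4013 ± 129 (SD, n = 2) for the gefitinib group and 3805 ± 278 (SD, n = 2) for cells given both. The order from luteolin through DMSO and gefitinib to luteolin plus gefitinib contained no pair of neighbours that differed by more than their spread. On the log2 scale DMSO and gefitinib changed places, with means of 12.00 for luteolin, 11.97 for gefitinib, 11.96 for DMSO and 11.89 for luteolin plus gefitinib. The spread came mainly from the DMSO and luteolin groups, in which replicate 2 was 1.38-fold and 1.33-fold above replicate 1. In the gefitinib group the corresponding ratio was 1.05, and with luteolin plus gefitinib it was 1.11. Among the 365 miRNAs detected on all arrays, 267 had a smaller difference between the DMSO replicates than miR-21-5p, and 121 had a smaller one between the gefitinib replicates.

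**Figure D1:**
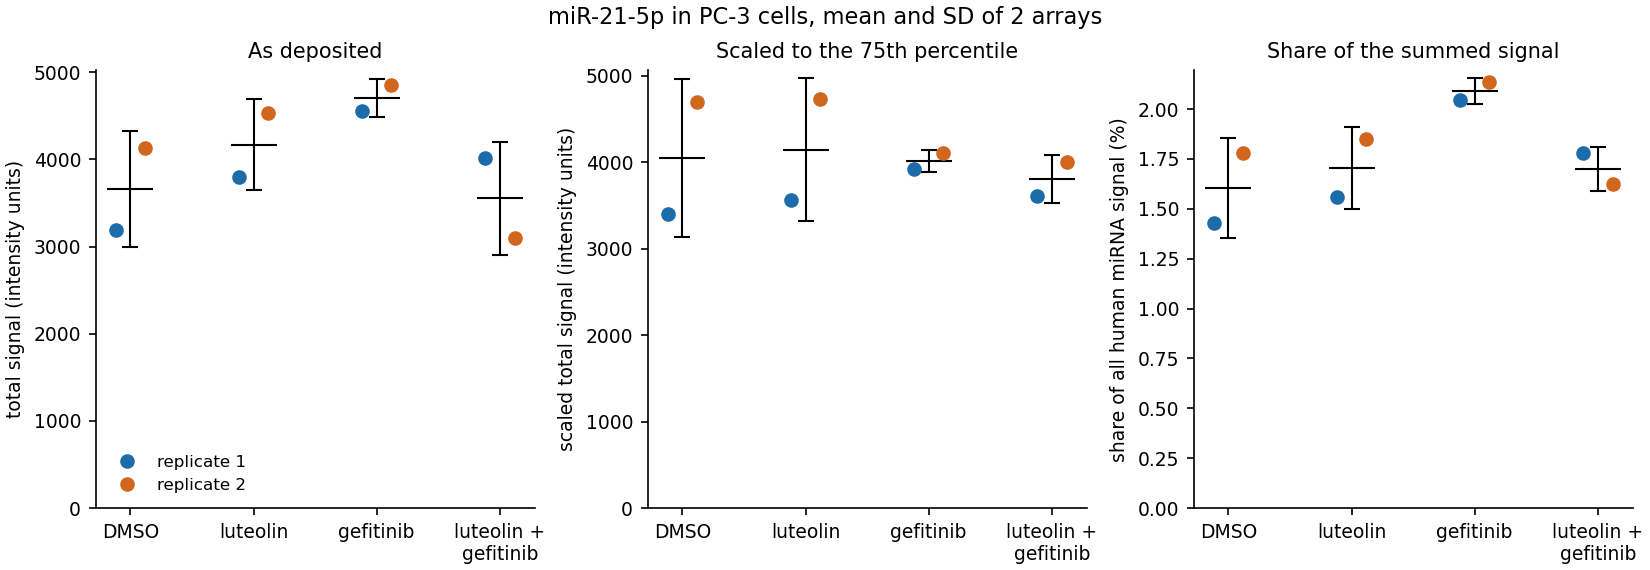
Signal of miR-21-5p in each group as deposited (left, intensity units), after scaling to the 75th percentile (middle, intensity units) and as a share of the summed signal of all human miRNAs (right, percent). Points are single arrays, and horizontal lines and bars give the mean and SD of 2 arrays. All 4 groups overlap after scaling, between 3401 and 4731, whereas both gefitinib arrays stand above the others in the left and right panels.

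The signal rested on 2 probes, A_25_P00010975 and A_25_P00010976, each with 15 spots per array. All 120 spots of each probe over the 8 arrays were well above background, and 0 were saturated. The highest median pixel value of a spot, 10573.5, was 1.36% of the saturation value, while the background median around the spots was between 28 and 30. The software marked 2 spots of the first probe and 4 of the second as outliers. Within an array, the spots of the first probe had a coefficient of variation (CV) between 4.26% and 5.79%, and those of the second between 2.84% and 11.03%.

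Both probes followed the same pattern across the arrays. The ratio of the first probe's total signal to the second's stayed between 1.34 and 1.42 on the 8 arrays. The difference between the replicates of DMSO and of luteolin was thus seen by both probes, and it exceeded the scatter of the spots on an array. Spots of 1 array are repeated readings of 1 hybridised sample and were not used as replicates.

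**Figure D2:**
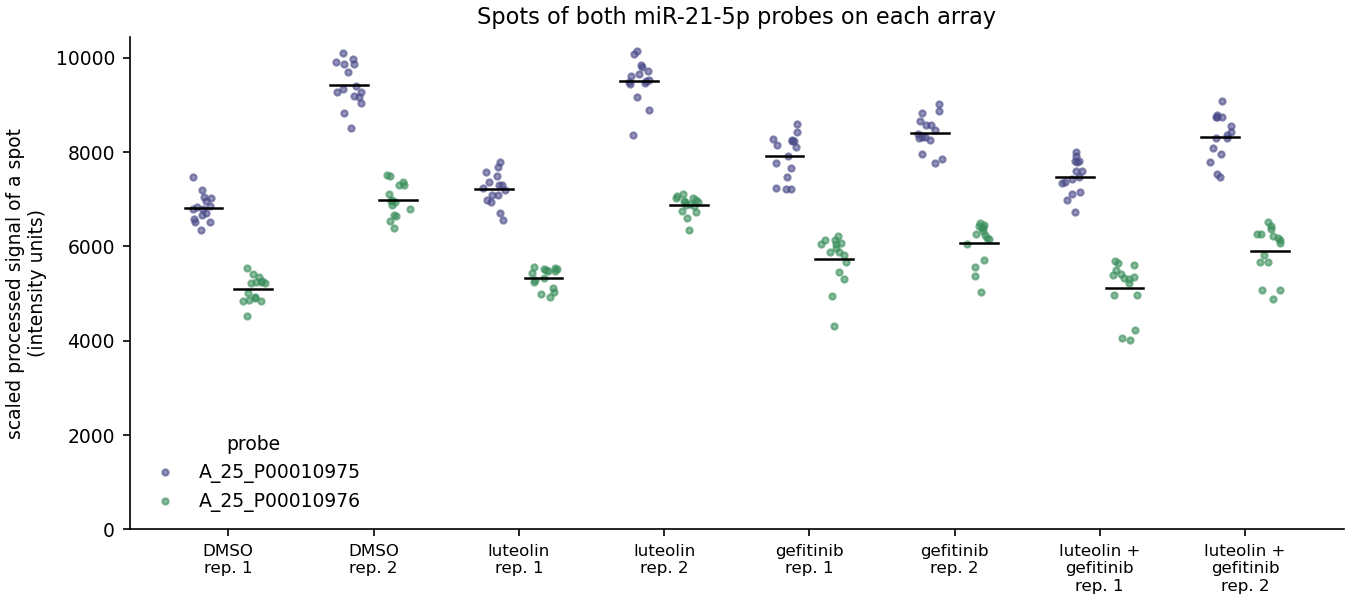
Scaled processed signal, in intensity units, of each of the 15 spots of both miR-21-5p probes on each of the 8 arrays, with a line at each mean. The A_25_P00010975 spots lie above the A_25_P00010976 spots on each array by a ratio of means between 1.34 and 1.46, and replicate 2 of DMSO and of luteolin is brighter than replicate 1 for both probes.

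The comparisons were made with limma on the log2 scaled signal of 480 miRNAs, namely those found by the software on both replicates of some group. A call required a Benjamini-Hochberg adjusted p under 0.05 across these 480. Luteolin changed miR-21-5p by 0.04 on the log2 scale (SE 0.22), which is 1.03-fold with a 95% interval of 0.6998 to 1.51 (limma adjusted p = 1). Under luteolin 2.08% of the tested miRNAs were called. Gefitinib gave a log2 change of 0.01, or 1.00-fold with an interval of 0.684 to 1.47 (limma adjusted p = 0.990), in a comparison in which 12.1% of the miRNAs were called. Luteolin plus gefitinib gave -0.07, or 0.951-fold with an interval of 0.648 to 1.40 (limma adjusted p = 0.897), and again 12.1% were called. The drug groups therefore held no called change of miR-21-5p, but the intervals leave room for changes of up to about the size of their bounds. With this spread, a change had to reach 1.47-fold for its interval to lie clear of 1.

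The comparisons between drug groups gave the same picture. miR-21-5p differed by -0.11 on the log2 scale between luteolin plus gefitinib and luteolin (95% interval -0.67 to 0.44, limma adjusted p = 1), where 1.88% of miRNAs were called. Between luteolin plus gefitinib and gefitinib the difference was -0.08 (-0.63 to 0.48, limma adjusted p = 0.992), where 4.58% were called. Between gefitinib and luteolin it was -0.03 (-0.59 to 0.52, limma adjusted p = 0.996), where 5.00% were called. The interaction, which sets the effect of the pair against the sum of the single effects, was -0.12 (-0.90 to 0.67, limma adjusted p = 0.986), where 3.33% were called. An exact permutation test of 2 arrays against 2 cannot give a two-sided p under 0.333, and none was used.

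Replicate and slide row coincide, so the differences from DMSO were also taken within each row. For luteolin they were 0.07 in the row of the replicate 1 arrays and 0.01 in the other row. Gefitinib gave 0.21 and -0.19, and luteolin plus gefitinib gave 0.09 and -0.23. The differences under gefitinib and under the pair thus had opposite signs in the rows. With the row as a block in limma the log2 changes stayed as given and the adjusted p over the 7 comparisons was between 0.786 and 0.985.

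**Figure D3:**
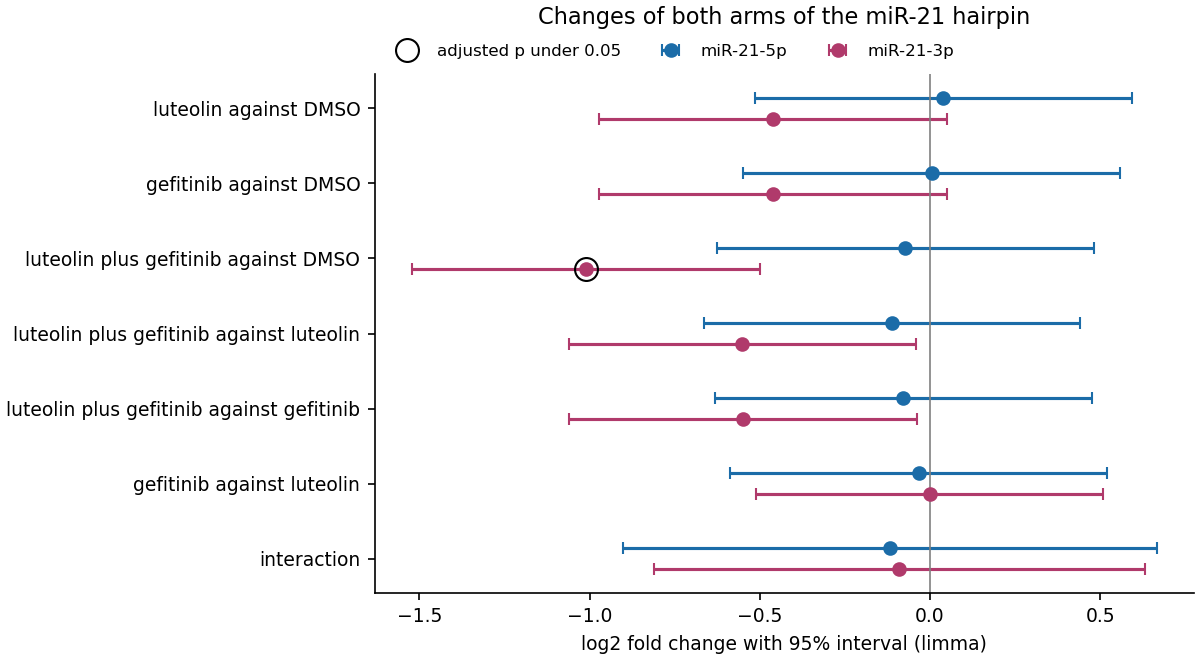
Log2 fold changes of miR-21-5p (blue) and miR-21-3p (red) with 95% intervals from limma in the 7 comparisons, where a ring marks an adjusted p under 0.05. Every interval of miR-21-5p crosses 0. The single ring belongs to miR-21-3p in luteolin plus gefitinib against DMSO, at -1.01.

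The value for gefitinib depended on how the arrays were scaled, although no setting made it a call. With no scaling it was 0.37 on the log2 scale (limma adjusted p = 0.467). Quantile normalization gave 0.35 (adjusted p = 0.155), scaling to the summed signal 0.39 (adjusted p = 0.223), scaling to the human small-RNA control probes 0.37 (adjusted p = 0.352), and scaling to the spike-in probes 0.46 (adjusted p = 0.372). Except under quantile normalization, these settings moved the whole set of tested miRNAs as well. The median change under gefitinib was -0.10 over all 480 miRNAs with the 75th percentile, 0.26 with no scaling, 0.27 with the summed signal, 0.25 with the small-RNA controls and 0.34 with the spike-in probes. Relative to that median, miR-21-5p lay 0.11 above it with the 75th percentile and 0.12 above it in each of these other 4 settings. With quantile normalization the median was -0.071, and miR-21-5p lay 0.42 above it.

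Quantile normalization stood apart because it replaces a signal by the mean signal of its rank. miR-21-5p held rank 7 among all miRNAs on 6 arrays, and ranks 5 and 6 on the arrays of gefitinib alone. The quantile value was consequently 0.35 for gefitinib and exactly 0 for both other drug groups. For luteolin plus gefitinib, the sign changed with the scaling, from -0.07 with the 75th percentile to 0.36 with the small-RNA controls. The median of all miRNAs moved from -0.16 to 0.24 between the same settings. The difference between the pair and gefitinib, -0.08 with the 75th percentile, was -0.42 with no scaling, -0.35 with quantile normalization, -0.30 with the summed signal, -0.38 with the spike-in probes and -0.0098 with the small-RNA controls. The interaction was -0.61, -0.35, -0.39, -0.62 and -0.16 in the same settings. The median of all miRNAs between the pair and gefitinib was -0.39, 0, -0.28, -0.36 and -0.00071 in these settings. For the interaction that median was -0.48, -0.015, -0.27, -0.49 and -0.044, and miR-21-5p lay at -0.13, -0.33, -0.13, -0.13 and -0.12 relative to it. With normexp background treatment followed by quantile normalization, gefitinib against DMSO gave 0.17 (limma adjusted p = 0.105), the lowest adjusted p of that comparison. Under 24 alternative settings per pairwise comparison, miR-21-5p was called in 0. The difference between the pair and gefitinib was negative in all 24.

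**Figure D4:**
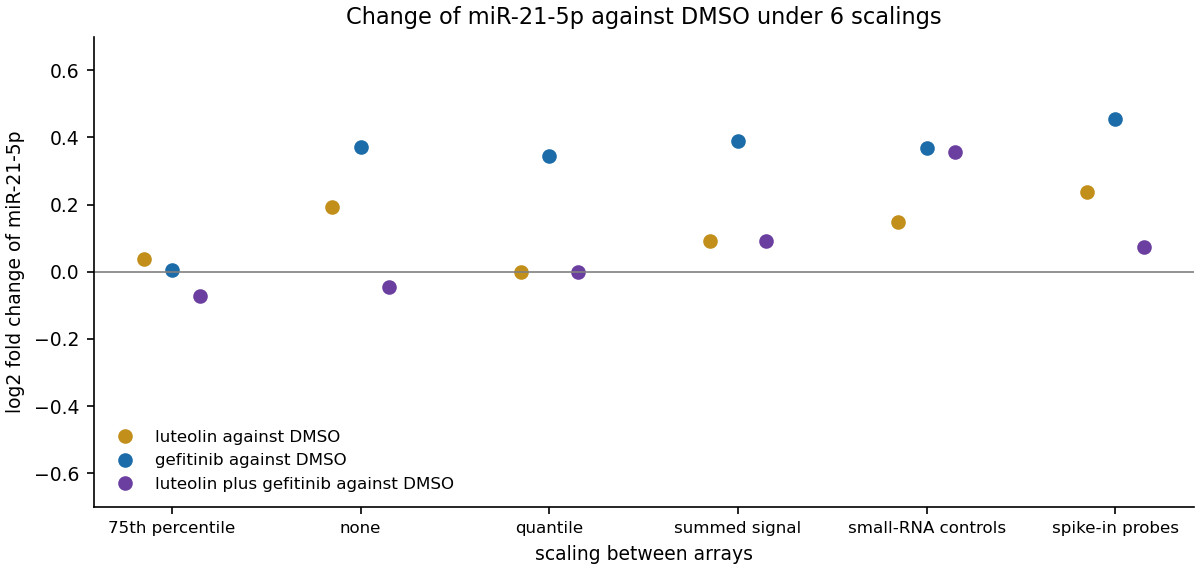
Log2 fold change of miR-21-5p against DMSO for each drug group under 6 ways of scaling the arrays. Gefitinib gives 0.01 with the 75th percentile and values from 0.35 to 0.46 with the others, whereas luteolin plus gefitinib ranges from -0.07 to 0.36; none of these changes was called.

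miR-21-5p took a small part of the summed signal of all human miRNAs. The share was 1.43% and 1.78% with DMSO, 1.56% and 1.85% for luteolin, 2.04% and 2.14% for gefitinib, and 1.78% and 1.62% for the drug pair. The group means were 1.60% ± 0.250 (SD, n = 2), 1.70% ± 0.204, 2.09% ± 0.0642 and 1.70% ± 0.110 in the same order. Both gefitinib arrays thus had a higher share than all 6 other arrays. The same held for 32.7% of the tested miRNAs, and for 51.7% both gefitinib arrays had a higher share than both DMSO arrays.

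The denominator of this share was set by very few probes. The 5 miRNAs with the highest mean log2 signal over the 8 arrays, miR-4454, miR-720, miR-5100, miR-4284 and miR-1273g-3p, took between 72.7% and 78.1% of the summed signal. miR-720 was later withdrawn from the miRNA catalogue as a fragment of a transfer RNA. Under gefitinib all 5 had negative log2 changes in the scaled signal, between -0.54 for miR-720 and -0.16 for miR-4284, and none was called (limma adjusted p between 0.0874 and 0.642). When these 5 were left out of the sum, miR-21-5p took 7.06% ± 0.789 in the DMSO group, 7.32% ± 0.659 after luteolin, 7.79% ± 0.0354 after gefitinib and 7.18% ± 0.0884 after both (SD, n = 2 each). The gap between gefitinib and DMSO was then smaller than the SD of the DMSO group. Both gefitinib arrays (7.77% and 7.82%) still lay above both DMSO arrays (6.50% and 7.62%), while replicate 2 of luteolin (7.79%) lay between the gefitinib arrays. How many other miRNAs stood so with this sum was not counted. A share of the array's signal is not a share of molecules, because probes differ in how much signal a molecule gives.

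miR-21-3p, cut from the same hairpin, had a lower scaled signal in all drug groups than with DMSO. Its scaled signal was 99.4 and 94.2 with DMSO, 80.8 and 61.2 after luteolin, 73.5 and 67.1 after gefitinib, and 54.7 and 42.1 after the pair. The means were 96.8 ± 3.66, 71.0 ± 13.9, 70.3 ± 4.53 and 48.4 ± 8.87 (SD, n = 2 each). On this scale no array of a drug group reached the DMSO arrays, and both arrays of luteolin plus gefitinib lay below the arrays of either single drug. Groups were likewise free of overlap for 26.9% of all tested miRNAs in luteolin against DMSO, 57.5% in gefitinib against DMSO, 52.9% in luteolin plus gefitinib against DMSO, 34.2% in luteolin plus gefitinib against luteolin and 51.0% in luteolin plus gefitinib against gefitinib.

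Only the pair of drugs gave a called change of miR-21-3p among the 7 comparisons. With luteolin plus gefitinib it was 0.496-fold the DMSO level, a log2 change of -1.01 (SE 0.21, 95% interval -1.52 to -0.50, limma adjusted p = 0.0327), against the 12.1% of miRNAs called in that comparison. Luteolin and gefitinib alone each gave -0.46, with limma adjusted p of 0.572 and 0.258. Before scaling the single drugs overlapped with DMSO, since replicate 1 of luteolin (86.2) and of gefitinib (85.4) exceeded replicate 2 of DMSO (82.9). The gefitinib value was close to 0 with no scaling (-0.095), the summed signal (-0.077), the small-RNA controls (-0.10) and the spike-in probes (-0.011). The luteolin value was -0.26 with the spike-in probes and lay between -0.26 and -0.66 when single arrays were left out. The pair differed from luteolin by -0.55 (limma adjusted p = 0.278) and from gefitinib by -0.55 (limma adjusted p = 0.328), and the interaction was -0.09 (limma adjusted p = 0.986). The difference from luteolin was -0.23 with the small-RNA controls and between -0.35 and -0.75 without single arrays, and that from gefitinib was -0.89 with no scaling and -0.36 without replicate 2 of the pair. The median of all miRNAs was 0.24 against luteolin with the small-RNA controls and -0.39 against gefitinib with no scaling. Within the slide rows the differences of luteolin plus gefitinib from DMSO were -0.86 and -1.16.

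The size and the call of this decrease depended on single settings. It was -0.98 with no scaling (limma adjusted p = 0.214), -0.85 with the summed signal (adjusted p = 0.175), -0.87 with the spike-in probes (adjusted p = 0.192) and -0.58 with the small-RNA controls (adjusted p = 0.119). The median of all miRNAs in this comparison was -0.13, -0.0034, -0.015 and 0.24 in these settings, beside -0.16 with the percentile scaling. The smaller decrease with the small-RNA controls thus went with a higher median of all miRNAs, and miR-21-3p lay below the median in each setting. The same value of -1.01 had an adjusted p of 0.230 when all miRNAs were tested, 0.0929 when only the compared groups were fitted and 0.227 by the methods' test. The controls themselves were dimmest on replicate 2 of luteolin plus gefitinib, at 8956 intensity units against 12913 to 15524 on the other arrays. Without that replicate the change was -0.82 (limma adjusted p = 0.143), and the call was also lost without either DMSO replicate (adjusted p = 0.149 and 0.129) or either gefitinib replicate (adjusted p = 0.0897 for both). The sign was negative in 22 of 22 settings and the call held in 10 of them. All 120 spots of both miR-21-3p probes were well above background, and the highest median pixel value of a spot was 240.

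**Figure D5:**
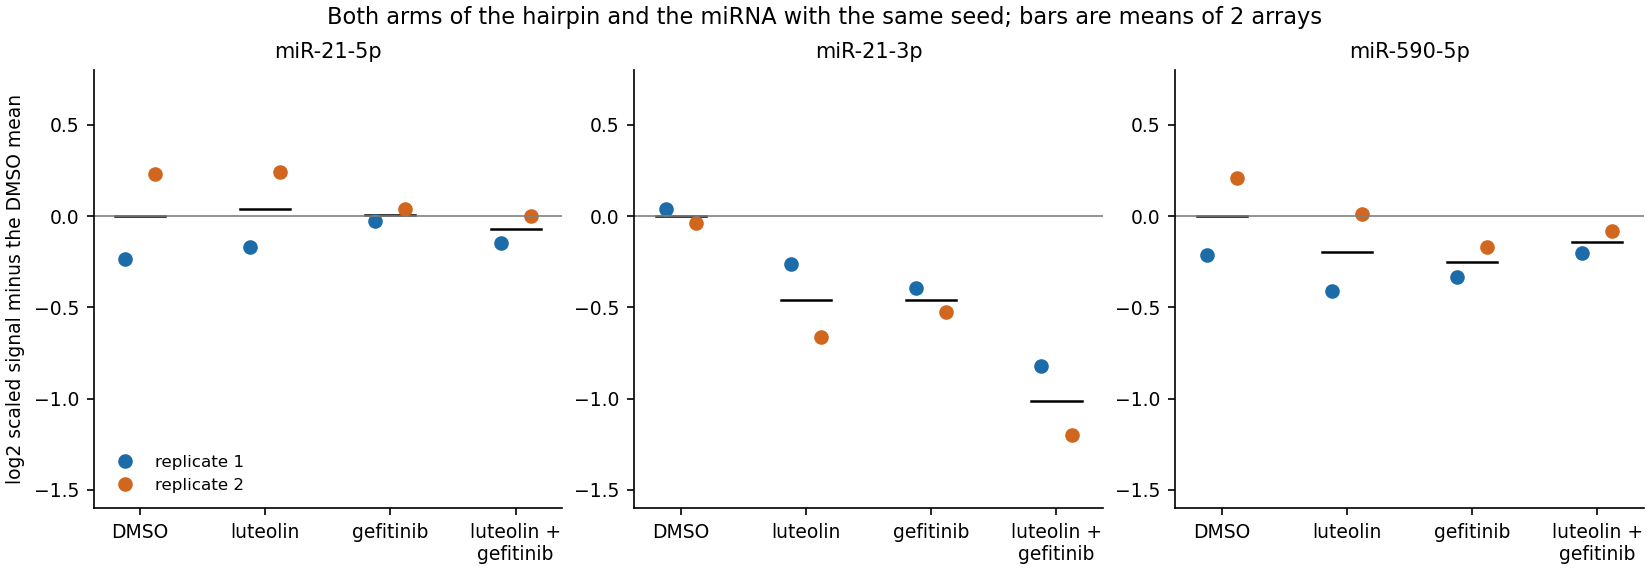
Log2 scaled signal of miR-21-5p, miR-21-3p and miR-590-5p on each array, minus the mean of the 2 DMSO arrays, with a line at each group mean. The points of miR-21-5p and miR-590-5p overlap between groups, whereas the miR-21-3p points of luteolin plus gefitinib average -1.01.

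As both arms come from 1 transcript, their log ratio was also compared, a measure chosen after the data were seen. It is free of the scaling of the arrays, and it is a ratio of probe signals rather than of molecules. The ratio of the miR-21-5p signal to the miR-21-3p signal was 34.2 and 49.8 in the DMSO group, 44.1 and 77.4 under luteolin, 53.3 and 61.1 under gefitinib, and 66.0 and 94.97 when both were given. The arrays of gefitinib and of the pair lay above both DMSO arrays, whereas replicate 1 of luteolin lay between them. All 4 arrays of these groups likewise lay above both DMSO arrays for 35.3% of 34 hairpins.

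The log2 ratio of the arms was 0.94 higher with luteolin plus gefitinib than with DMSO (95% interval 0.09 to 1.78). After adjustment over the 34 hairpins with both arms detected on all arrays, this was not a call (limma adjusted p = 0.117). In that comparison 17.6% of the hairpins were called. The adjusted p was 0.0134 with the slide row as a block, 0.0362 with normexp and 0.0495 without either luteolin replicate, so that the call depended on the setting. Luteolin alone gave 0.50 (limma adjusted p = 0.554), where 5.88% of hairpins were called, and gefitinib alone 0.47 (limma adjusted p = 0.603), where 2.94% were called. The median over the 34 hairpins was 0.15 with luteolin, 0.22 with gefitinib and 0.24 with the pair.

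miR-590-5p, which carries the same seed, had a much dimmer signal and no called change. Its scaled signal was 12.2 and 16.4 in DMSO-treated cells, 10.68 and 14.3 in luteolin-treated cells, 11.3 and 12.6 in gefitinib-treated cells, and 12.3 and 13.4 for the combination. These arrays overlapped between all groups. The log2 changes against DMSO were -0.20 for luteolin (limma adjusted p = 0.934), -0.25 for gefitinib (limma adjusted p = 0.598) and -0.14 for the pair (limma adjusted p = 0.759).

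Compared with other miRNAs, the level of miR-21-5p varied little across treatments. The SD of its log2 scaled signal over the 8 arrays was 0.18, against a median of 0.27 for the 365 miRNAs detected on all arrays, and 70 of these had a smaller SD. The SD that remained within the groups was 0.23, close to the median of 0.21, and 202 miRNAs had a smaller one. The SD of miR-21-5p over all arrays was thus no larger than that within the groups.

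The miRNAs whose scaled signal followed miR-21-5p most closely over the 8 arrays were miR-107, miR-28-5p and miR-23a-3p, with Pearson's r of 0.990, 0.979 and 0.969 on the log2 scale, among 364 miRNAs. miR-107, a regulator of metabolism that shares its family with miR-103, was 360 ± 74.6 with DMSO, 373 ± 76.1 after luteolin, 350 ± 12.97 after gefitinib and 345 ± 21.9 after the pair (SD, n = 2 each). A wider spread with DMSO and luteolin than with gefitinib was common on these arrays, where the median log2 difference between replicates over the 365 miRNAs was 0.32, 0.39 and 0.10 respectively. The least alike were miR-4270, miR-4459 and miR-1225-5p, with r of -0.898, -0.894 and -0.864. The median r over the 364 miRNAs was 0.10, and miR-21-3p had an r of -0.106 and a Spearman's rho of -0.333. All arrays share the slide and the same scaling, so that these values describe how the arrays varied and carry no test.

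Among 10 miRNAs linked in general knowledge to EGFR, STAT3 or AP-1 signalling, the pathways that act on the miR-21 gene, 8 were tested and limma called 0 in any of the 7 comparisons. At an unadjusted p under 0.05, 0 of the 8 passed under luteolin, 3 under gefitinib and 1 under luteolin plus gefitinib. Over all 480 miRNAs 8.54%, 23.8% and 25.8% passed this threshold in these comparisons, and 2.08%, 12.1% and 12.1% were called. Their median log2 change was 0.01, -0.11 and -0.05 in these comparisons, beside medians of -0.10, -0.10 and -0.16 over all 480 miRNAs. The widest change belonged to miR-7-5p, which is known to target EGFR itself and was singled out here after its values were seen, with -1.55 under gefitinib (limma adjusted p = 0.0654). A second list held 20 widely described oncogenic miRNAs besides miR-21-5p, of which 18 were tested, and limma called 0 in all 7 comparisons. It shares 3 miRNAs with the first list, so that the counts of both lists are not independent. At that threshold, 1 of the 18 passed under luteolin, 3 under gefitinib and 0 under the pair. Their median changes were -0.07, -0.28 and -0.12.

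Lists of miRNAs typical of epithelium and of other cell types were also examined. Of 6 epithelial miRNAs, 3 were detected on all 8 arrays and 3 on none, with a summed signal, as deposited, between 183 and 314 intensity units. This list alone therefore does not settle the identity of the cells. Of 4 leukocyte miRNAs at most 1 was detected on an array, with a summed signal of up to 1.60. The listed miRNAs of erythrocytes, endothelium, smooth muscle and fibroblasts, skeletal muscle, liver and neurons were detected on 0 arrays. A bulk measurement cannot tell a change per cell from a change in which cells remained.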

How the data were processed

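Total RNA of PC-3 cells was labelled with Cy3 and hybridised to 1-colour Agilent human miRNA arrays. The authors extracted the images with Agilent Feature Extraction 10.7.3.1 with its default settings. The deposited values are thus background-subtracted intensity on a linear scale, not adjusted between arrays. The design text of the arrays names hg19, and the files hold no coordinates. An undetected miRNA has a total signal of 0.1. The methods describe ratios to DMSO and a Student's t-test, with a threshold on the fold change and p under 0.05. They describe no adjustment of p over the miRNAs.

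Total signals were scaled as described, raised to a floor of 0.609 and log2-transformed. The 4 groups were fitted together in R 4.3.3 by lmFit and eBayes of limma 3.58.1, using version 1.17.8 of data.table and version 2.0.0 of jsonlite, with 4 residual and 1.66 prior degrees of freedom. Tests are two-sided and limma p-values are adjusted over the 480 tested miRNAs. Samples were grouped by the treatment in their labels, and none was left out. The number of arrays, 2 per group, limits the precision. The scripts were tested on simulated data.

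The miRNA, the lists and the tests were chosen with earlier results of these data known. Named miRNAs are miR-21-5p, the other arm, seed sharers, the 5 brightest miRNAs, the 3 most and 3 least alike over the arrays, and list members that were called. miR-7-5p was added after its values were seen. No sequence of miR-21-3p was matched by name. The alternatives changed the scaling, the summary of spots, the treatment of background (normexp, offset 50, followed by quantile normalization), the filter, the floor, the probe, the arrays in the fit, the test and the replicate block, and left out each array in turn.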

Additional observations from a re-analysis of the deposited data

How the results depend on the processing

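No alternative made miR-21-5p a called miRNA, in 24 settings for each pairwise comparison and 22 for the interaction. Its main changes were near 0, but some scalings enlarged several, and several changed sign. The sign turned for luteolin against DMSO with normexp (-0.010). It turned for gefitinib against DMSO with the series table (-0.041) and with probe A_25_P00010976 alone (-0.011). For luteolin plus gefitinib against DMSO it turned with the summed signal (0.092), the small-RNA controls (0.36) and the spike-in probes (0.073), and against luteolin with the summed signal (5.38e-05), the small-RNA controls (0.21) and normexp (0.0089). For gefitinib against luteolin it turned with no scaling (0.18), quantile normalization (0.35), the summed signal (0.30), the small-RNA controls (0.22), the spike-in probes (0.22) and normexp (0.18). The median of all miRNAs in that comparison was then 0.21 with no scaling, 0.32 with the summed signal and 0.24 with either set of controls, and miR-21-5p minus that median was -0.025, -0.024 and -0.025, beside -0.033 with the 75th percentile, whereas with quantile normalization the median was -0.015 and miR-21-5p lay 0.36 above it. Leaving out each array in turn gave, against DMSO, -0.19 to 0.27 for luteolin, -0.23 to 0.24 for gefitinib and -0.31 to 0.16 for the pair, with both ends set by a DMSO replicate. It gave -0.32 to 0.094 for luteolin plus gefitinib against luteolin, -0.15 to -0.0039 for the pair against gefitinib, -0.24 to 0.17 for gefitinib against luteolin and -0.35 to 0.12 for the interaction. For miR-21-3p the sign turned in gefitinib against luteolin with no scaling (0.21), the summed signal (0.33), the small-RNA controls (0.25), the spike-in probes (0.25) and the mean processed signal (0.000222), and ranged from -0.20 to 0.20 without single arrays. Its interaction ranged from -0.29 to 0.11 without single arrays and was -0.58 with no scaling, -0.36 with the summed signal and -0.59 with the spike-in probes.

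The replicate numbers coincide with the rows of the slide. Same-numbered arrays deviated together for DMSO and luteolin (r = 0.908 over miRNAs) and less so for the pair with DMSO (0.409) and with luteolin (0.461), but not for DMSO and gefitinib (r = -0.135). With a replicate block the adjusted p of miR-21-5p was against DMSO 0.985 for luteolin, 0.982 for gefitinib and 0.786 for the pair, 0.815 for the pair against luteolin, 0.899 for the pair against gefitinib, 0.957 for gefitinib against luteolin and 0.924 for the interaction. The log ratio of the arms, 0.94 for the pair against DMSO, passed adjustment with the replicate block (adjusted p = 0.0134), with normexp (0.73, adjusted p = 0.0362) and without either luteolin replicate (adjusted p = 0.0495). Without single arrays it ranged from 0.67 to 1.21.

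The number of called miRNAs was less stable: 10 for luteolin against DMSO (0 to 18 over the alternatives), 58 for gefitinib (15 to 73), 58 for luteolin plus gefitinib (12 to 99), 9 for the pair against luteolin (0 to 41), 22 for the pair against gefitinib (7 to 41), 24 for gefitinib against luteolin (0 to 60) and 16 for the interaction (2 to 24). The 75th percentile over all human miRNAs was not run, because it fell on the value of undetected miRNAs on 5 of 8 arrays.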
